A study of Mus musculus with 7 samples.

Results

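Arntl, Clock, Npas2, Nfil3 and Cry1 were examined in mouse kidney: the activators of the circadian clock, the repressor Cry1 and the transcription factor Nfil3. The genes were picked by symbol, as clock genes that belong to the phase in which Arntl transcript is abundant. Earlier results of these data were known when they were picked. All 5 were among the 17537 genes listed, and all 5 were among the 13976 genes tested, those with at least 1 CPM (the reads of a gene scaled to a common library total, normalised between libraries) in at least 2 libraries.

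Kidney RNA of 7 C57BL/6 mice was sequenced, with 1 library per mouse, to compare renal gene expression in diabetes with and without later lowering of blood glucose. The labels give male mice and an age of 8 to 10 weeks, which is the age at the start and not at collection, while the study's methods name wild-type mice of both sexes. The 3 control mice (C, replicates 2, 8 and 9) were nondiabetic, the 2 DM-22 mice had received streptozotocin, a toxin of the insulin-producing beta cells, at 60 mg/kg on 5 days and were left hyperglycaemic until week 22, and the 2 DM+SGLT2i mice had in addition received dapagliflozin, an inhibitor of SGLT2, the transporter that returns filtered glucose to the blood, at 25 mg/kg for 6 weeks from week 16. All mice were wild type, so that the diabetic groups model insulin deficiency after a chemical toxin, and no nondiabetic group given the inhibitor was analysed here. Controls received the citrate vehicle according to the study's methods. The hour at which each kidney was collected is not given in the sources used here, and its part in the levels below was not tested.

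The circadian clock is a feedback loop of transcription that runs in nearly every cell, kidney tubule cells included. BMAL1, the protein product of Arntl, pairs with CLOCK or with its paralog NPAS2 and binds E-box elements, switching on Per, Cry, Nr1d and Dbp genes. PER and CRY proteins then inhibit the activators, while REV-ERB receptors (Nr1d1, Nr1d2) repress and ROR receptors activate Arntl, Npas2, Nfil3 and Cry1 through ROR elements. NFIL3 represses D-box genes, on which DBP, TEF and HLF act as activators. In tissues with a running clock, Arntl and Npas2 transcripts are abundant when those of Dbp are scarce, and Cry1 peaks later than the other E-box genes.

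The genes lie on 5 chromosomes, and all are annotated as protein coding (GRCm38, GENCODE M21). Arntl (ENSMUSG00000055116) occupies chr7:113207465-113314126 on the forward strand, and Npas2 (ENSMUSG00000026077) chr1:39193731-39363236, also forward. On the reverse strand are Clock (ENSMUSG00000029238) at chr5:76209868-76304792, Nfil3 (ENSMUSG00000056749) at chr13:52967209-52981073 and Cry1 (ENSMUSG00000020038) at chr10:85131700-85185064. The antisense gene Gm45355 overlaps Arntl on the opposite strand. The library kit keeps strand, but whether the counting used it is not given in the sources used here, so that reads from Arntl and from this antisense gene cannot be told apart. Clock is overlapped by Ube2n-ps1 and Gm43658 on its own strand. Npas2 is overlapped by Gm3617 on its own strand and by Gm20428 on the opposite strand. These overlapping genes were not among the genes listed, and strand cannot separate those on the same strand.

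Promoter sequence is shown for the 3 genes in which a searched motif was found, because these elements are the routes by which the loop acts on its own activators and repressors. The windows ran from 250 bases before to 50 bases after each annotated start (RefSeq, GRCm38.p6), and both strands were searched for the E-box CACGTG, the ROR element cores TAGGTCA and TGGGTCA, and the D-boxes TTATGTAA and TTACGTAA. The looser form TAGGTNA was added after the sequences had been seen. Capitals mark the matches, and each line reads 5′ to 3′ on the strand of the gene.
Arntl, chr7:113207441-113207560, plus strand: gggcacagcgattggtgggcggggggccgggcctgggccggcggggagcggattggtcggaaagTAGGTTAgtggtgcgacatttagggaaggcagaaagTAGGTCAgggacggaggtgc
Nfil3, chr13:52980990-52981109, minus strand: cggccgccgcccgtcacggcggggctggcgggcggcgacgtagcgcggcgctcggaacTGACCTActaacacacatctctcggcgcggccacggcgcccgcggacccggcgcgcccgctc
Cry1, chr10:85185055-85185154, minus strand: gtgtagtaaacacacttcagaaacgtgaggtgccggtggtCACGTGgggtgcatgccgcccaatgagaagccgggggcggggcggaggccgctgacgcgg

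Arntl carried the core TAGGTCA at chr7:113207541-113207547 and the looser match TAGGTTA at chr7:113207505-113207511. Nfil3 carried the same core, read on the strand opposite to the gene, at chr13:52981045-52981051. In Cry1 the match was an E-box at chr10:85185109-85185114. A ROR core was present in the windows of 7.35% of 27025 genes, an E-box in 8.09%, a D-box in 1.23% and TAGGTNA in 9.51%, and 0.557% of all windows held 2 or more copies of TAGGTNA. None of the letters searched lay in the windows of Clock or Npas2, which says only that they are not in these windows. A match is a description of the sequence and not a measured binding site.

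Arntl was the member that differed most between the groups. Its level was 1.21, 1.77 and 1.62 CPM in C replicates 2, 8 and 9, 6.48 and 19.4 CPM in DM-22 replicates 1 and 2, and 5.07 and 8.69 CPM in DM+SGLT2i replicates 1 and 2. Each of the 4 diabetic libraries therefore lay above each of the 3 controls, and the highest library was 16 times the lowest. The means were 1.53 ± 0.290 CPM in C (SD, n = 3), 12.9 ± 9.14 in DM-22 (SD, n = 2) and 6.88 ± 2.56 in DM+SGLT2i (SD, n = 2), so that the ratio to C was 8.44 in DM-22 and 4.48 in DM+SGLT2i. These levels rest on 66 to 84 reads in controls and on 259 to 839 reads in diabetic libraries.

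Npas2, the paralog that can replace Clock as the partner of Arntl, showed the same separation. Control levels were 1.61, 3.37 and 2.46 CPM, DM-22 levels 4.19 and 13.2 CPM, and DM+SGLT2i levels 6.65 and 7.24 CPM. The lowest diabetic library stood just above the highest control, and DM-22 replicate 2 stood apart from all others. Mean levels were 2.48 ± 0.878 CPM in C, 8.69 ± 6.36 in DM-22 and 6.95 ± 0.417 in DM+SGLT2i (SD, n = 3, 2 and 2), with ratios to C of 3.50 and 2.80.

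Clock, the constitutive partner, had the smallest spread over the 7 libraries. Its levels were 95.2, 90.2 and 87.7 CPM in C, 100 and 118 CPM in DM-22 and 91.2 and 105 CPM in DM+SGLT2i. The 2 DM-22 libraries were above all controls, whereas DM+SGLT2i replicate 1 lay within the control range. Mean levels were 91.0 ± 3.82, 109 ± 12.6 and 98.0 ± 9.64 CPM (SD, n = 3, 2 and 2), and the highest library was 1.34 times the lowest.

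Nfil3, the repressor of D-box genes, measured 3.63, 3.31 and 2.99 CPM in C, 5.29 and 13.9 CPM in DM-22, and 4.48 and 7.61 CPM in DM+SGLT2i. Again no diabetic library overlapped the controls. The means were 3.31 ± 0.318, 9.57 ± 6.05 and 6.04 ± 2.21 CPM (SD, n = 3, 2 and 2), and the ratios to C were 2.89 in DM-22 and 1.83 in DM+SGLT2i.

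Cry1, which encodes the cryptochrome that blocks the activators, departed from this pattern. Its levels were 5.22, 3.39 and 5.04 CPM in C, 7.58 and 5.55 CPM in DM-22, and 2.76 and 4.97 CPM in DM+SGLT2i. DM-22 libraries lay above the controls and DM+SGLT2i libraries below DM-22, while DM+SGLT2i and C overlapped. Mean levels were 4.55 ± 1.01, 6.56 ± 1.43 and 3.86 ± 1.56 CPM (SD, n = 3, 2 and 2).

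**Figure D1:**
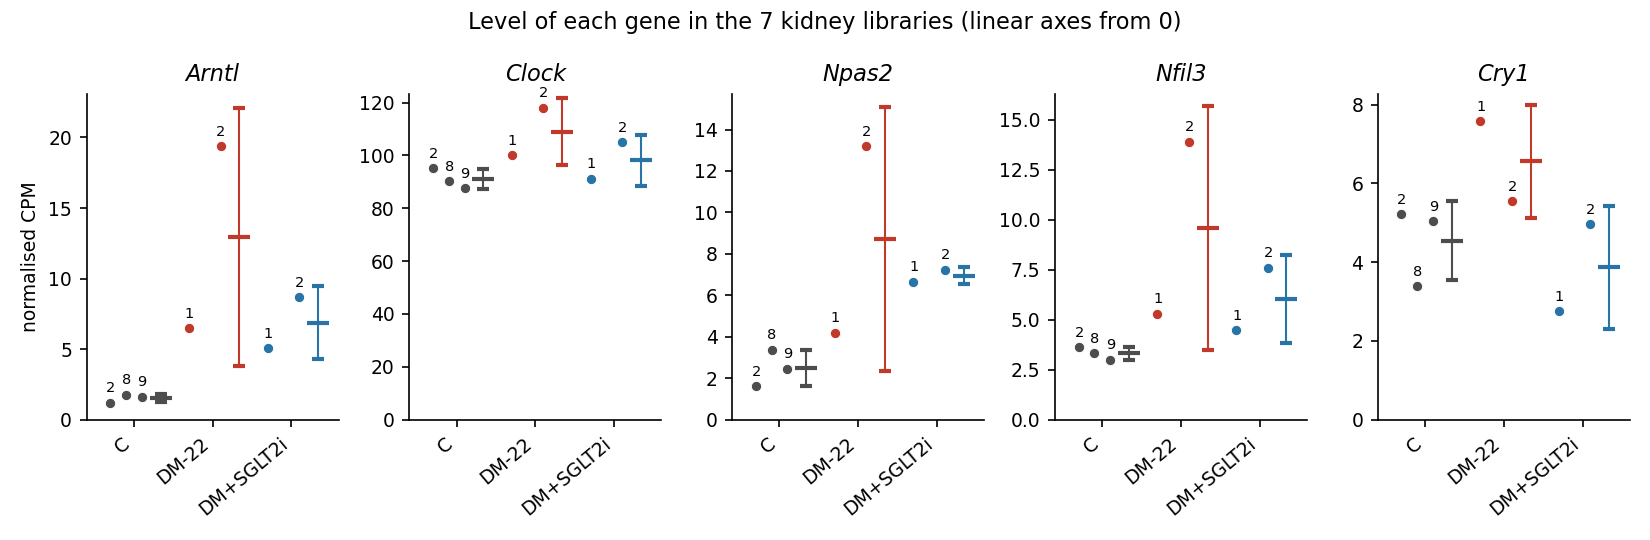
Normalised CPM of each gene (vertical axis, linear from 0) in the 3 C, 2 DM-22 and 2 DM+SGLT2i libraries. Points are libraries with their replicate numbers, and bars beside them are the mean ± SD of the group. For Arntl, Npas2 and Nfil3 all 4 diabetic libraries sit above the 3 controls, with DM-22 replicate 2 the highest at 19.4, 13.2 and 13.9 CPM, while Clock runs only from 87.7 to 118 CPM and the C and DM+SGLT2i libraries of Cry1 overlap.

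The shares of all genes given beside the members describe them and are not a test, because the members were picked with earlier results of these data known. In the comparison of all 4 diabetic libraries with the 3 controls, 3 of the 5 genes (Arntl, Npas2 and Nfil3) did not overlap and were higher, against 1.31% of all genes tested. In DM-22 against C all 5 were higher without overlap, where 10.8% of genes tested were. In DM+SGLT2i against C the same 3 genes were higher without overlap (background 5.67%). In DM+SGLT2i against DM-22 only Cry1 separated, with the DM+SGLT2i libraries lower, as for 20% of genes tested in a comparison of 2 with 2 libraries. Bulk tissue was sequenced, in which more cells of a type and more RNA per cell cannot be told apart.

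Per length of exon, which allows levels of different genes to be compared, Clock was the most abundant of the 5 in every group. Mean levels in C were 6.63 CPM per kb for Clock, 1.63 for Nfil3, 1.36 for Cry1, 0.518 for Npas2 and 0.204 for Arntl. In C the ranges of Nfil3 (1.48 to 1.79) and Cry1 (1.01 to 1.56) overlapped, so that these neighbours in the order could not be separated. In DM-22 the mean levels were 7.94 for Clock, 4.72 for Nfil3, 1.97 for Cry1, 1.81 for Npas2 and 1.72 for Arntl, and the last 3 overlapped. In DM+SGLT2i they were 7.14 for Clock, 2.98 for Nfil3, 1.45 for Npas2, 1.16 for Cry1 and 0.914 for Arntl, where Cry1 overlapped both of its neighbours in the order and Npas2 and Arntl did not overlap each other.

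The balance between the activators differed accordingly. Clock transcript per kb was 27.9 to 43.1 times that of Arntl in the 3 controls and 3.33 to 9.86 times in the 4 diabetic libraries. Clock over Npas2 ran from 9.34 to 20.6 in controls and from 3.12 to 8.33 in diabetic libraries. Npas2 over Arntl ran from 2.09 to 2.99 in controls and from 1.02 to 2.06 in diabetic libraries. The 2 sets of libraries did not overlap in any of these 3 ratios, which restate the levels above and were not tested.

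Differences were fitted with limma on log2(CPM + 0.5), over all 13976 genes and the 3 groups together. Fold changes on this scale understate those of genes at low levels, such as Arntl in controls. In DM-22 against C the log2 fold change was 2.54 for Arntl (SE 0.47, 95% interval 1.43 to 3.66), 1.47 for Npas2 (SE 0.48, 0.33 to 2.61) and 1.26 for Nfil3 (SE 0.41, 0.28 to 2.25). Cry1, at 0.49 (-0.26 to 1.24), and Clock, at 0.25 (-0.08 to 0.59), had intervals that included 0. None passed an adjusted p of 0.05: the Benjamini-Hochberg adjusted p from limma was 0.804 for each of the 5 genes. At an unadjusted p under 0.05, 3 of the 5 (Arntl, Npas2 and Nfil3) were higher, as were 1.19% of genes tested. By the size of the log2 fold change, Arntl ranked 2, Npas2 5 and Nfil3 9 of 13976 genes, and without C replicate 2 they ranked 3, 91 and 69. Leaving out DM-22 replicate 2 lowered the log2 fold changes to 1.79 for Arntl, 0.70 for Npas2 and 0.61 for Nfil3. Leaving out C replicate 2 left the same count of 3, while the share of all genes tested rose to 10.4%. The count is not given for the fits without a DM-22 library. How far it rests on DM-22 replicate 2 is therefore seen only in the smaller fold changes above.

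In DM+SGLT2i against C the log2 fold change was 1.82 for Arntl (SE 0.47, 0.71 to 2.94), 1.36 for Npas2 (SE 0.48, 0.22 to 2.51) and 0.74 for Nfil3 (SE 0.41, -0.24 to 1.73). Clock stood at 0.10 (-0.23 to 0.44) and Cry1 at -0.24 (-0.99 to 0.51). The limma adjusted p was 1 for all 5 genes. Without adjustment 2 of the 5 (Arntl and Npas2) were past 0.05 and higher, against 0.665% of genes tested in this direction. Without C replicate 2 this count was 1 (Arntl), beside 8.73% of genes tested, and the log2 fold change of Npas2 was 1.14. The count was also 1 without C replicate 9, where the share of all genes is not given here. Without DM+SGLT2i replicate 2 the log2 fold change was 1.46 for Arntl and 0.39 for Nfil3. Both diabetic groups were set against the same 3 controls, so that these values are not independent of those in DM-22.

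The treated and untreated diabetic mice were compared directly. In DM+SGLT2i against DM-22 the log2 fold change was -0.72 for Arntl (95% interval -1.94 to 0.50), -0.11 for Npas2 (-1.36 to 1.15), -0.52 for Nfil3 (-1.60 to 0.56), -0.15 for Clock (-0.51 to 0.21) and -0.73 for Cry1 (-1.55 to 0.09). The limma adjusted p was 0.881 for Arntl, Nfil3, Clock and Cry1 and 0.978 for Npas2, and 0 of the 5 had an unadjusted p under 0.05, where 3.91% of genes tested did in either direction. Without DM-22 replicate 1 the log2 fold change was -1.48 for Arntl and -1.18 for Nfil3, and without DM+SGLT2i replicate 2 it was -1.10 for Cry1. With 2 mice a group the intervals of all 5 genes include differences in either direction. The differences of Arntl, Npas2 and Nfil3 turned positive when DM-22 replicate 2 was left out, at 0.04, 0.67 and 0.13.

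The mean of DM-22 and DM+SGLT2i was also set against C in the same fit of 3 groups, as all diabetic libraries against C. The log2 fold change was then 2.18 for Arntl (SE 0.39, 1.25 to 3.12), 1.42 for Npas2 (SE 0.40, 0.46 to 2.37) and 1.0 for Nfil3 (SE 0.34, 0.18 to 1.83). In size of the difference Arntl was number 2 of all genes tested, Npas2 number 7 and Nfil3 number 32, and without C replicate 2 they were numbers 11, 171 and 251. Clock differed by 0.18 (-0.10 to 0.46) and Cry1 by 0.13 (-0.50 to 0.75). The limma adjusted p was 0.988 for all 5, and 0 genes of 13976 passed the threshold in either direction, while 3 of the 5 members were higher at an unadjusted p under 0.05 (0.658% of genes tested). This count was 2 without C replicate 8 or C replicate 9, where the share of all genes is not given here. Without C replicate 2 it was 3 beside 10.4% of genes tested. The count-based fit with voom also called 0 members in each comparison. Without DM-22 replicate 2, the log2 fold change of all diabetic libraries over C was 1.81 for Arntl, 1.03 for Npas2 and 0.68 for Nfil3.

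**Figure D2:**
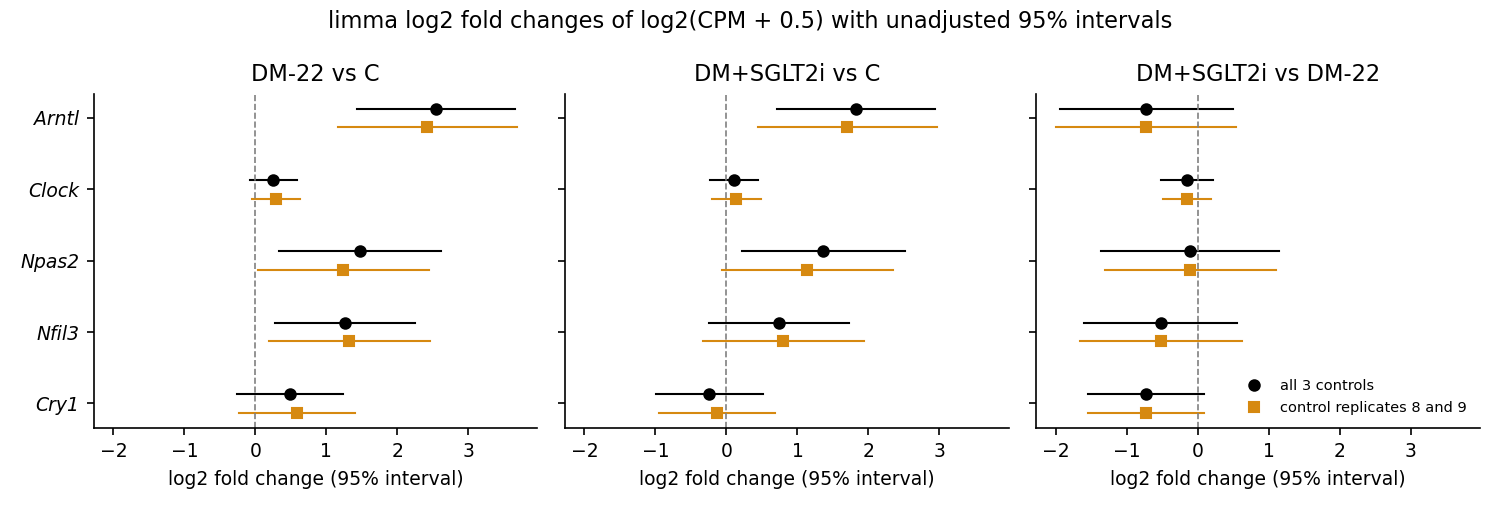
Log2 fold change of each gene (horizontal axis, limma on log2(CPM + 0.5)) with its unadjusted 95% interval in 3 comparisons, with all 3 controls (black circles) and with control replicates 8 and 9 only (orange squares). Against C the intervals of Arntl lie above 0 in both diabetic groups and with both sets of controls, and in DM+SGLT2i against DM-22 every interval includes 0.

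Control replicate 2 stood apart from the other controls over all genes. Its median absolute log2 difference was 0.408 from replicate 8 and 0.391 from replicate 9, against 0.110 between replicates 8 and 9, and its nearest library was DM+SGLT2i replicate 2, at 0.177. In Arntl, Npas2 and Nfil3, however, it lay with the other controls and below all diabetic libraries. Without it the log2 fold change of all diabetic libraries over C was 2.06 for Arntl, 1.19 for Npas2 and 1.06 for Nfil3. The limma adjusted p was then 0.0833, 0.167 and 0.180, and 0 of the 5 genes passed, whereas 18 genes of the whole table passed as higher (0.129%) and 10 as lower (0.0716%). By levels, Clock then joined Arntl, Npas2 and Nfil3 in lying above both remaining controls in all 4 diabetic libraries, so that 4 of the 5 did not overlap, beside 15.1% of genes tested. In a further fit, libraries were weighted by their fit to their group. Control replicates 2, 8 and 9 had weights of 0.167, 2.228 and 6.462, so that replicate 9 counted most among the controls. The 2 libraries of each diabetic group had equal weights. Arntl, Npas2 and Nfil3 then passed in all diabetic libraries against C, at limma adjusted p of 0.0429, 0.0429 and 0.0448. So did 3.43% of genes tested in this direction.

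Among the genes of the opposite arms of the loop, Dbp, Per2 and Nr1d2 were lower in all diabetic libraries than in all controls, as were 1.38% of genes tested. The other tested genes of these arms overlapped. Dbp, the D-box activator that is a direct target of the CLOCK-BMAL1 pair, measured 168, 225 and 220 CPM in C, 83.3 and 37.6 CPM in DM-22, and 106 and 66.6 CPM in DM+SGLT2i. No diabetic library reached a control, and the order of the 4 diabetic libraries in Dbp was the exact reverse of their order in Arntl and Nfil3. The log2 fold change of all diabetic libraries over C was -1.56 for Dbp (SE 0.31, -2.29 to -0.82, limma adjusted p = 0.988). Ciart, which encodes a repressor of the CLOCK-BMAL1 pair, measured 5.88, 12.4 and 15.6 CPM in C, 3.76 and 0.948 CPM in DM-22, and 7.85 and 2.55 CPM in DM+SGLT2i. One DM+SGLT2i library of Ciart overlapped the controls.

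By list, 6 of the 7 clock repressors other than Cry1 were listed and tested (Per1, Per2, Cry2, Ciart, Bhlhe40 and Bhlhe41, with Per3 not listed). All 6 had a log2 fold change below 0 in all diabetic libraries against C, with a median of -0.61 beside 0.00 over all genes tested. None passed the adjusted threshold in limma, 3 were lower at an unadjusted p under 0.05, against 1.38% of genes tested, and Per2 was lower without overlap, as were also 1.38% of genes tested. With library weights 3 of the 6 (Per2, Ciart and Cry2) passed as lower, as did 6.15% of genes tested, and the median was -1.02. Per2, a core repressor, stood at 16.1, 34.1 and 47.3 CPM in C, 15.8 and 14.5 CPM in DM-22, and 15.9 and 11.8 CPM in DM+SGLT2i. Its lowest control, replicate 2, was only just above the diabetic libraries.

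The 3 PAR bZIP activators of D-boxes (Dbp, Tef and Hlf) all had log2 fold changes below 0, with a median of -0.67, 0 passing, and 2 lower at an unadjusted p under 0.05. With library weights 2 of the 3 (Dbp and Tef) passed as lower, and the median was -0.86. Of the 4 nuclear receptors of the loop in the list used here, 3 were tested (Nr1d1, Nr1d2 and Rora), and all 3 were below 0, with a median of -0.27 and 0 passing (1 passing, Nr1d2, with library weights). Nr1d2, a REV-ERB repressor of Arntl, was lower without overlap (background 1.38%). It measured 112, 162 and 171 CPM in C, 106 and 65.4 CPM in DM-22, and 105 and 81.1 CPM in DM+SGLT2i, with C replicate 2 only just above DM-22 replicate 1. Its paralog Nr1d1 overlapped, at 122 to 138 CPM in C and 57.1 to 194 CPM in the diabetic libraries. Arntl2, the paralog of Arntl, was near 1 CPM or below it in most libraries and did not share the difference of Arntl. It measured 0.897 to 1.14 CPM in C, 0.378 and 0.416 CPM in DM-22, and 1.35 and 0.614 CPM in DM+SGLT2i. In DM-22 it thus lay below all controls, with a log2 fold change of -0.74 (-1.50 to 0.02), while DM+SGLT2i and C overlapped.

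**Figure D3:**
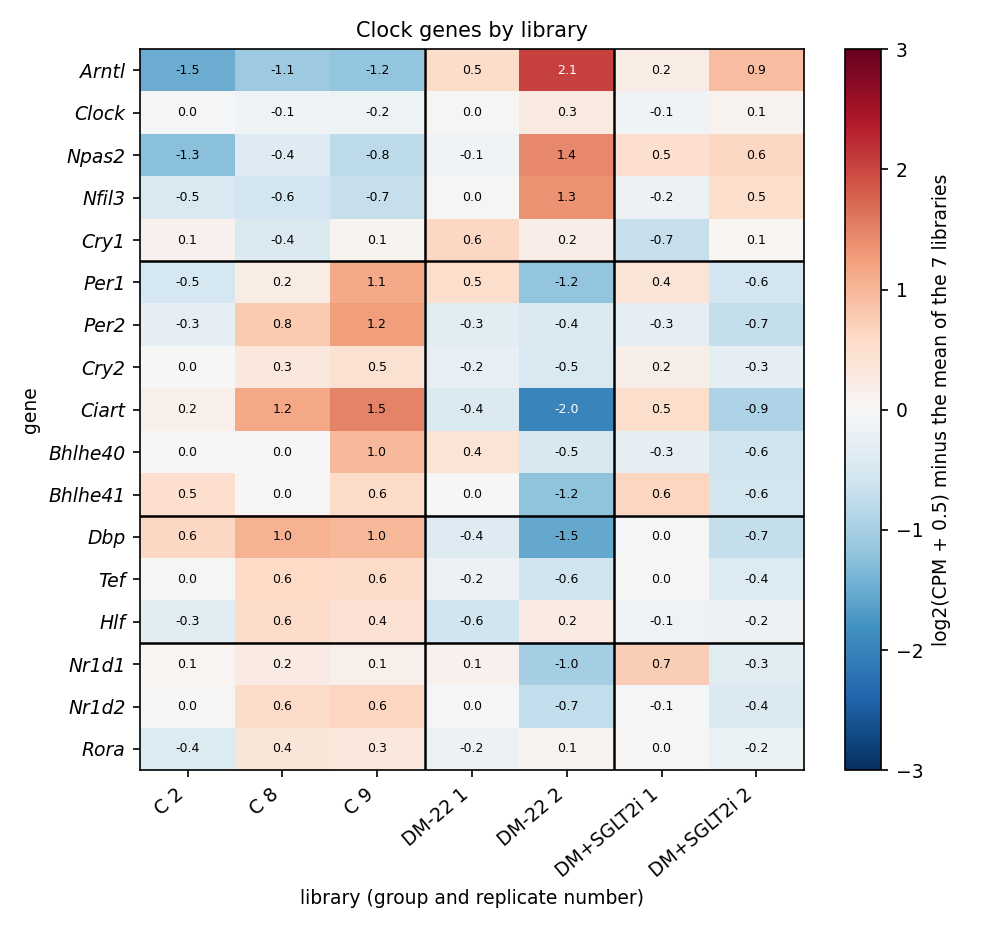
Log2(CPM + 0.5) of 17 clock genes (rows) in the 7 libraries (columns), each centred on the mean of the gene, with red above and blue below it. Horizontal lines separate the 5 members, the clock repressors, the PAR bZIP genes and the nuclear receptors of the loop. Arntl is lowest in the 3 controls and highest in DM-22 replicate 2, where Ciart and Dbp are lowest, and Clock is nearly flat.

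The lists further from the loop held genes in both directions. In all diabetic libraries against C, 6 of 7 outputs of the CLOCK-BMAL1 pair had a log2 fold change below 0, with a median of -0.25 and 0 passing in limma. Without overlap, Leo1 was higher (background 1.31%) and Wee1, a cell cycle kinase, lower (background 1.38%). Among 14 kinases, ubiquitin ligases and other modifiers of clock proteins, 6 were above and 8 below 0, with a median of -0.03 and 0 passing. Of 7 kidney genes under clock control, among them Scnn1a and Slc9a3 for sodium transport, 6 were above 0, with a median of 0.32 and 0 passing. Without C replicate 2 that median was 0.69, and 4 of the 7 were higher at an unadjusted p under 0.05, beside 10.4% of genes tested. Of 9 corticosteroid-responsive genes, 3 were above 0 and 6 below, with a median of -0.22 and 0 passing. Without C replicate 2 their median was -0.43, and 4 of the 9 were lower at an unadjusted p under 0.05, beside 14.5% of genes tested.

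The library in which the members stood highest was the same for 4 of them. Arntl and Nfil3 shared 1 order of the diabetic libraries: DM-22 replicate 2, DM+SGLT2i replicate 2, DM-22 replicate 1 and DM+SGLT2i replicate 1. Npas2 and Clock also had DM-22 replicate 2 first and DM+SGLT2i replicate 2 second. The DM-22 replicates were further apart than the groups of diabetic mice: DM-22 replicate 2 held 19.4 CPM of Arntl and DM-22 replicate 1 held 6.48 CPM, close to the 5.07 and 8.69 CPM of the treated mice. The SD of log2(CPM + 0.5) over the 7 libraries was 1.21 for Arntl, larger than that of 99% of genes tested. It was 0.85 for Npas2 (96.7%), 0.67 for Nfil3 (93%), 0.40 for Cry1 (76.5%) and 0.14 for Clock (17.4%).

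The patterns of the 5 genes were set side by side by the root mean square distance, over the 7 libraries, between their centred log2(CPM + 0.5) values. This distance keeps the size of the differences, so that genes with a small spread, such as Clock and Cry1 (0.35 apart), come out near each other and far from Arntl whatever their order over the libraries. Npas2 and Nfil3 were 0.41 apart. Arntl was 0.49 from Npas2, 0.62 from Nfil3, 1.09 from Clock and 1.17 from Cry1. In the order of the libraries, by contrast, Clock had the same 3 libraries first as Arntl and Nfil3, with a much smaller spread, whereas Cry1 had the 2 DM-22 libraries first.

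Over all genes tested, the nearest to Arntl by this distance were Acnat2, an acyltransferase of fatty acid metabolism, at 0.49, Slc16a1, a monocarboxylate transporter, at 0.64, and Ndrg1 at 0.74. Acnat2 measured 41.0, 64.5 and 55.7 CPM in C, 99.0 and 228 CPM in DM-22, and 139 and 139 CPM in DM+SGLT2i, without overlap. The nearest to the mirror image of Arntl were Dbp at 0.41, Ciart at 0.59 and F2, the prothrombin gene, at 0.71. Acnat2 and Slc16a1 were also the nearest to Npas2, at 0.12 and 0.29, followed by Gulo, an enzyme of vitamin C synthesis, at 0.38. For Nfil3 they were Cwh43 and Vstm2a, both at 0.31, and Hspa5, a chaperone of the endoplasmic reticulum, at 0.33. Clock was matched within 0.04 by Hnrnpab (0.03), Galm (0.03) and Psme3 (0.04), and Cry1 by Cd79b, part of the B cell receptor, at 0.12, 2610306M01Rik at 0.13 and a row listed as Ndufb4, a subunit of respiratory complex I, at 0.15. These distances describe the same 7 libraries and carry no test.

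Depth and the markers of other cells were read beside these levels. Libraries held 46456125 to 56541594 reads on listed genes, so that 1 read was worth 0.0180 to 0.0231 CPM, far below the lowest member level. Markers of kidney tubules were abundant in all libraries, with proximal tubule markers (7 of 7 listed) summing to 7139 to 16296 CPM in C and 7842 to 15615 CPM in the diabetic libraries. Of the 13 cell type lists, only endothelium differed without overlap in its sum: its 5 markers, none at 0, summed to 318 to 332 CPM in C and 333 to 365 CPM in the diabetic libraries. None of the 5 separated all diabetic libraries from C on its own. In DM+SGLT2i against C, Pecam1 and Cdh5 were higher without overlap, as were 5.67% of genes tested. The means of Emcn (53.4 against 63.6 CPM) and Tek (47.6 against 48.9 CPM) were lower in DM+SGLT2i than in C, and that of Kdr (99.4 against 92.1 CPM) was higher, each with overlap. Adipose markers reached 403 CPM and urothelial markers 136 CPM in DM+SGLT2i replicate 1, and fibroblast markers 648 CPM and macrophage markers 402 CPM in C replicate 2. Thick ascending limb markers summed to 12921 CPM in DM-22 replicate 1 and 3294 CPM in DM-22 replicate 2. Proximal tubule markers summed to 7842 and 15615 CPM in the same libraries, and distal convoluted tubule markers to 656 and 2338 CPM. Nuclear-retained RNAs summed to 94.8, 460 and 630 CPM in C replicates 2, 8 and 9 and to 59.2 to 211 CPM in the diabetic libraries. The part of these differences in the levels of the clock genes was not tested.

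**Figure D4:**
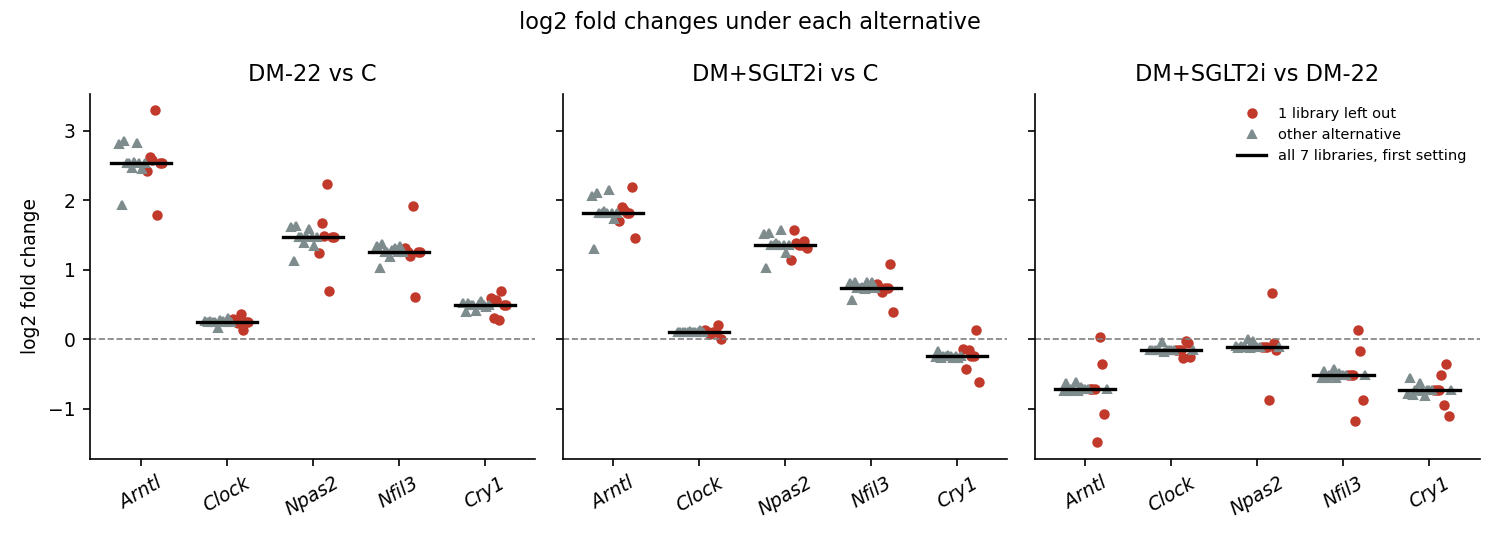
Log2 fold change of each gene (vertical axis) in 3 comparisons under each alternative processing. Black lines are the values given in the text, red circles the fits with 1 library left out, and grey triangles the other alternatives. Against C, Arntl stays between 1.79 and 3.30 in DM-22 and between 1.30 and 2.19 in DM+SGLT2i, while in DM+SGLT2i against DM-22 the values of Arntl run from -1.48 to 0.04.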

How the data were processed

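RNA sequencing of kidney covered 7 mice, grouped by the sample labels, with 1 table of 7 value columns, all used (0 left out). The authors deposited log2 values of normalised CPM. The submitters' processing notes name bcl2fastq, FastQC, Trim Galore, STAR, edgeR and the build mm10, without versions; the annotation and counter are not given in the sources used here. The values reached a common floor of -4.66, so that CPM were recovered by subtracting the floor on the linear scale, which gave whole reads for 100% of values (tolerance 0.05). The lowest total of a listed gene was 10 reads.

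The filter kept genes reaching 1 CPM in 2 or more libraries. Tests used limma 3.58.1 under R 4.3.3 (trended empirical Bayes, 2-sided, Benjamini-Hochberg threshold 0.05) on log2(CPM + 0.5). P-values set each difference against the spread between these mice, which limma moderates over all genes tested. Python 3.11.15 was used for summaries and matplotlib 3.10.9 for plots. The fit was tested on simulated data. Lengths are union exons of GENCODE M21, in which all 17537 identifiers were found.

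The members and gene lists were chosen with earlier results of these data known. Named genes were the members, members of the clock lists in list order as needed, and the 3 genes nearest to each member. In addition, 1 gene of the clock lists is not reported here. The genes singled out for not overlapping were chosen after their values were seen. The paper's other experiments and its tables of fold changes were not used here. Alternatives were other pseudocounts (0.1 and 2), the values as deposited, no filter or 5 CPM, library totals, median-of-ratios factors, voom, no trend, library weights, only the groups compared, each library left out, and a replicate block.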

Additional observations from a re-analysis of the deposited data

Results flagged for a closer look

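For Fbxw11, a ubiquitin ligase subunit, both DM-22 libraries lay above the control mean on the log2 scale and both DM+SGLT2i libraries below it. Its levels were 111, 146 and 136 CPM in C, 139 and 142 CPM in DM-22, and 122 and 124 CPM in DM+SGLT2i. The mean log2 difference from C in DM+SGLT2i minus that in DM-22 was -0.19, with a limma adjusted p of 0.881 for the difference between the groups, and both groups lay within the range of the controls.

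Wnk1, a kinase that regulates sodium transport, had 1 of the 4 diabetic libraries far from the others: DM-22 replicate 1 stood below the other 3 at 302 CPM, against 671 CPM in DM-22 replicate 2 and 636 and 658 CPM in DM+SGLT2i, a gap of 0.905 of the whole range. Chance flags about 1 in 20 such groups.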

How the results depend on the processing

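Of 365 refitted log2 fold changes of the 5 genes, 356 kept direction and side of the adjusted threshold, 3 newly passed it and 6 changed sign. With library weights, 3 of the 5 genes passed in all diabetic libraries against C (limma: Arntl 2.09, Npas2 1.30 and Nfil3 1.09), and 0 passed under every other alternative and in every other comparison. The lowest and highest adjusted p of Arntl in DM-22 against C were 0.0939 and 1 over 18 alternatives. Of all genes tested, 0 passed in all diabetic libraries against C, 28 without C replicate 2 and 1339 with library weights.

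The sign changes came from leaving out 1 library. For Cry1 in DM+SGLT2i against C the range was -0.61 to 0.14, with the positive value without DM+SGLT2i replicate 1. In all diabetic libraries against C, Cry1 ranged from -0.06 (without DM+SGLT2i replicate 2) to 0.31, and was -0.05 without C replicate 8. In DM+SGLT2i against DM-22, Arntl ranged from -1.48 to 0.04, Npas2 from -0.88 to 0.67 and Nfil3 from -1.18 to 0.13, each with its lowest value without DM-22 replicate 1 and its positive value without DM-22 replicate 2. With 1 library left in a group, that library is assumed to vary like the others. With library totals the median of all genes in DM+SGLT2i against DM-22 shifted by 0.105, and Npas2, at -0.00, lay below that shift. DM-22 and DM+SGLT2i share replicate numbers 1 and 2. Over all genes, same-numbered libraries did not deviate together (r = -0.041 across 13976 genes, which are not independent). In Arntl, Clock, Npas2 and Nfil3, however, replicate 2 was above replicate 1 in both groups, while Cry1 differed in direction between the groups. A correlation over all genes cannot show whether the numbers used for the replicate block mark pairs. Under the block 0 of the 5 genes passed.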
